A study of Mus musculus with 2 samples.

Results

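The T cells described here are those of subcutaneous Lewis lung carcinoma (LLC) tumors in which no transcript of either CD8 chain was counted. They were chosen from 2 single-cell RNA libraries of sorted CD45+ cells, CD45 being the surface protein that marks leukocytes. A cell was a member if at most 10% of its unique molecular identifiers (UMIs, 1 per captured RNA molecule) came from mitochondrial (mt-) genes, if it held at least 2 UMIs of Cd3d, Cd3e and Cd3g together, none of Cd8a or Cd8b1, and at most 5 of the macrophage genes C1qa, C1qb and C1qc. This rule found 160 of 5149 cells. Members were then split by whether they held a UMI of Cd4 and of Foxp3. These gene counts chose the cells and are given as a description.

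The control group in the study's design is miR-21 fl/fl mice, and the other group carries the same floxed allele together with LysMCre, which drives recombination from the Lyz2 locus in macrophages and other myeloid cells. T cells are not the cells in which this Cre is meant to act. The mice were C57/BL6 and 10 weeks old, received LLC cells at 8 weeks and gave tumors on day 14. Each library pools CD45+ cells of 3 mice, so there is 1 library per group, labelled wt and cko by title, and no test between them is possible. The source descriptions of the libraries name the genotypes the other way round, and a macrophage gate and miR-21 null mice stand in the text on growth conditions. In cells with over 5 C1q UMIs and no CD3 UMI, Lyz2 stood at 16285 CPM (a gene's UMIs summed over a set of cells of a library and scaled to a common total) in the library labelled wt and 7308 CPM in the library labelled cko, the lower level lying under the title cko; whether Cre at this locus moves it was not tested. The libraries are called by their titles below, and the genotype behind a direction between them rests on those titles.

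The microRNA deleted in this model is not itself read by 3′ UMI counting of polyadenylated RNA. Its mature form, as RefSeq gives it for GRCm38.p6 at chr11:86584120-86584141 on the minus strand, is shown to name the targeted molecule, with the seed (bases 2 to 8) in capitals.

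mmu-miR-21a-5p: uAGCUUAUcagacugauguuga

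CD3 chains carry the signal of the T cell receptor and are shared by all T cells. CD4 T cells see peptides on MHC class II and help other leukocytes, and Foxp3 is the transcription factor of regulatory T cells, which restrain immune responses and in tumors carry receptors such as CTLA-4, OX40 (Tnfrsf4), GITR (Tnfrsf18) and 4-1BB (Tnfrsf9). T cells with neither CD4 nor CD8 include gamma delta T cells and natural killer (NK) T cells, and some T cells share receptors of the Klr families with NK cells. A missing transcript in a shallow cell does not show that the protein is absent.

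Depth was alike in the 2 libraries, at 2449 cells with 24492486 UMIs (median 8359 a cell) under the label wt and 2718 cells with 27163485 UMIs (median 8247) under cko. The mitochondrial limit took out 4 and 14 cells. A total of 5 cell barcodes occurred in both libraries, none of them a member. Members were shallower than most cells, with a median of 4988 UMIs in the library labelled wt and 5263 in the library labelled cko, and a median of 12.5 and 13 CD3 UMIs. Cells with over 5 C1q UMIs and no CD3 UMI (787 and 969 cells, medians 10844 and 10647 UMIs) served as background and are called C1q+ cells: a Cd4 UMI was found in 4.19% of them in the library labelled wt and 1.96% in the library labelled cko, and a Foxp3 UMI in 0.127% and in 0 of 969, which allows up to 0.310% (3 counts).

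Members made up 3.11% of the cells in both libraries. There were 76 in the library labelled wt (3.11% of its cells, exact 95% binomial interval 2.46 to 3.88%) and 84 in the library labelled cko (3.11%, 2.49 to 3.83%), a ratio of 0.999 with an interval from 0.724 to 1.38. Limited to cells without any C1q UMI, the share of CD8-negative T cells was 1.15% and 0.666%, a ratio of 0.581. All intervals given here cover counting error only and not the spread between mice. Just inside the limits lay 15 members with 2 CD3 UMIs, and just outside 158 cells with 1 CD3 UMI and 14 with 1 CD8 UMI. Only 1 member had 5 C1q UMIs and 1 cell fell out at 6, while 156 of the 160 members had at most 3. The libraries differed within this limit. Members with no C1q UMI numbered 28 in the library labelled wt and 18 in the library labelled cko. Those with 1 numbered 32 and 28, those with 2 numbered 12 and 20, and those with 3 numbered 1 and 17.

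Cd4 RNA was found in about the same share of members in the 2 libraries, in 25 of 76 (32.9%, 22.5 to 44.6%) and 26 of 84 (31.0%, 21.3 to 42.0%). Among members without a C1q UMI the share of members with Cd4 was 21.4% and 44.4%, a ratio of 2.07 in place of 0.941. Foxp3 RNA was found in 11 of 76 (14.5%, 7.45 to 24.4%) and 21 of 84 (25%, 16.2 to 35.6%), a ratio of 1.73 whose interval, 0.796 to 3.97, includes equal shares. After thinning each cell to 3000 UMIs the Foxp3 shares were 10.5% and 19.0%, and those of Cd4 25% and 22.6%. Both genes were thinly sampled: 12 Cd4+ cells in each library held a single Cd4 UMI.

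The members thus fell into 32 cells with Foxp3, 31 with Cd4 and no Foxp3, and 97 with neither. Of the Foxp3+ cells 9 and 11 also held Cd4, and 2 and 10 did not, the latter 2.63% and 11.9% of members (ratio 4.52, 0.964 to 42.5). The Cd4+ Foxp3- cells numbered 16 and 15 (21.1% and 17.9%), and the cells with neither transcript 49 and 48 (64.5% and 57.1%). The interval of each ratio between libraries included equal shares.

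**Figure D1:**
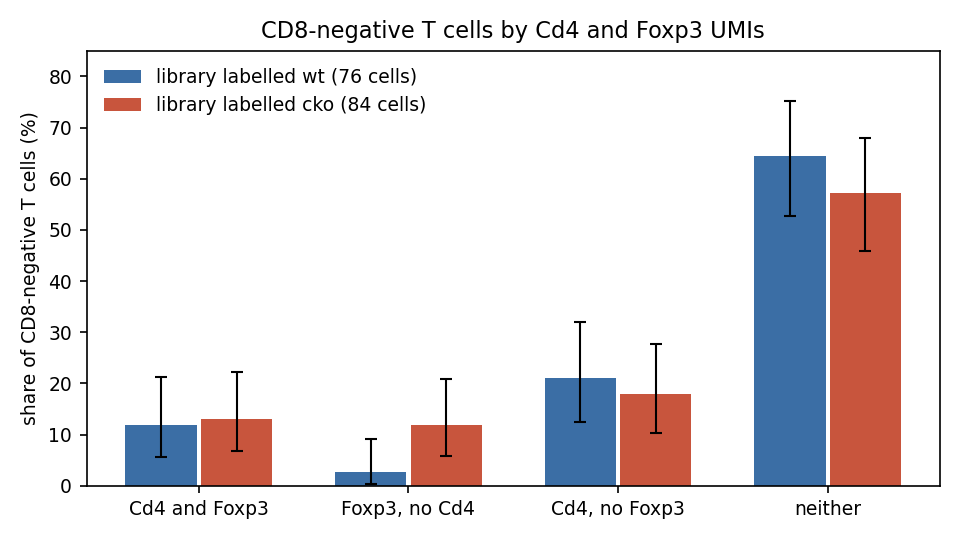
Share of members (percent, y axis) with Cd4 and Foxp3, Foxp3 alone, Cd4 alone or neither, by library; bars are the values and whiskers the exact 95% binomial intervals. The shares with Foxp3 but no Cd4 are 2.63% in the library labelled wt and 11.9% in the library labelled cko, and the whiskers of the 2 libraries overlap in every class.

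The label T cell was checked with genes that the rule did not use. A UMI of Cd5, Cd6, Bcl11b, Themis or Icos, genes of the T lineage, was found in 110 of 160 members (68.8%), and a UMI of Ncr1, Klrb1c or a Klra gene, receptors of NK cells, in 62 (38.8%). All 32 Foxp3+ cells held T lineage RNA and 2 held NK receptor RNA. Of the Cd4+ Foxp3- cells, 28 of 31 held T lineage RNA and 1 held NK receptor RNA. The label thus held for both of these classes.

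The cells with neither Cd4 nor Foxp3 were mixed. NK receptor RNA was found in 30 of 49 (61.2%) and 29 of 48 (60.4%), and T lineage RNA in 22 and 28. Over both libraries 31 cells held both kinds, 28 NK receptor RNA alone, 19 T lineage RNA alone and 19 none of these genes. Their median CD3 count was 14 UMIs with NK receptor RNA and 7.5 without. Only the 2 CD3 UMIs that the rule asks for were held by 14 of the 97 cells, 2 of them with NK receptor RNA. None of the others among these 14 held T lineage RNA. For comparison, NK receptor RNA was found in 35 of 195 CD8+ T cells chosen by the same limits, and T lineage RNA in 21 of 124 cells with Ncr1 but no CD3 or CD8 UMI (the NK gate below). The 97 cells are therefore called by their rule and given no cell type.

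RNA of other cells was measured beside this. The summed level of 13 macrophage genes, the C1q genes of the rule left out, was 12661 CPM in members of the library labelled wt and 14377 in the library labelled cko, against 69029 and 59822 CPM in C1q+ cells. It was 6361 and 12835 CPM in Foxp3+ cells, 4284 and 12892 in Cd4+ Foxp3- cells and 16702 and 15567 in cells with neither transcript. A total of 29 members (12 and 17) held over 5 UMIs of Csf1r, Adgre1, Cd68, Fcgr3 and Ms4a7, and 16 held at least 100 UMIs of MHC class II genes. The 29 include every cell with neither transcript that had 2 CD3 UMIs and no NK receptor RNA. Such cells held 8 to 29 UMIs of the same macrophage genes and 3 to 765 of MHC class II genes. They stay in the shares and among the Cd4- members, and whether their CD3 RNA is their own was not tested. Granulocyte genes (S100a8, S100a9, Csf3r, Retnlg and Cxcr2) summed to 722 and 227 UMIs (1584 and 399 CPM) in members, and to 4020 and 442 CPM in Cd4+ Foxp3- cells, where 152 of 164 S100a8 UMIs of the library labelled wt lay in 1 cell. Genes of B and plasma cells summed to 1 and 8 UMIs and those of dendritic cells to 7 and 2. Among the 48 and 58 cells with the highest doublet scores, a number set in advance as 1.96% and 2.16% of cells, 2 and 6 were members.

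Several regulatory T cell genes were found in nearly every Foxp3+ cell. The list of 20 summed to 7899 and 9607 CPM there, against 4070 and 4325 CPM in Cd4+ Foxp3- cells, with Itgae, Nt5e and Gpr83 at 0 UMIs in the library labelled wt and Lrrc32 and Nt5e at 0 in the library labelled cko. Tnfrsf4 (OX40) RNA was found in 11 of 11 and 21 of 21 of them, at 1212 CPM (986 to 1474) in the library labelled wt and 2368 CPM (2131 to 2623) in the library labelled cko. Ikzf2, which encodes the transcription factor Helios, was likewise found in every Foxp3+ cell, at 933 CPM (736 to 1166) and 1093 CPM (935 to 1271). Ctla4 was found in 10 of 11 and 21 of 21, at 1090 CPM (877 to 1340) and 789 CPM (655 to 942). The receptor genes thus reached nearly every cell of the class in both libraries.

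Further members of the same list were also high there. Tnfrsf9 stood at 1139 and 1747 CPM, Tnfrsf18 at 1042 and 1236 CPM and Capg, an actin-capping protein, at 993 and 1009 CPM. Il2ra, the high-affinity chain of the interleukin-2 receptor, was lower, at 376 CPM (9 of 11 cells) and 188 CPM (13 of 21). Klrg1, a receptor of differentiated lymphocytes, was found in 9 of 11 and 17 of 21 cells at 533 and 433 CPM. Granzyme B (Gzmb), a cytotoxic protease, was found in 8 of 11 and 17 of 21 Foxp3+ cells at 2423 and 1889 CPM. Cd40lg, Il2, Ifng, Tnfsf8 and Tcf7 were at 0 UMIs in all 32 cells, which allows up to 36.3 CPM in the library labelled wt and 19.4 CPM in the library labelled cko (3 counts).

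**Figure D2:**
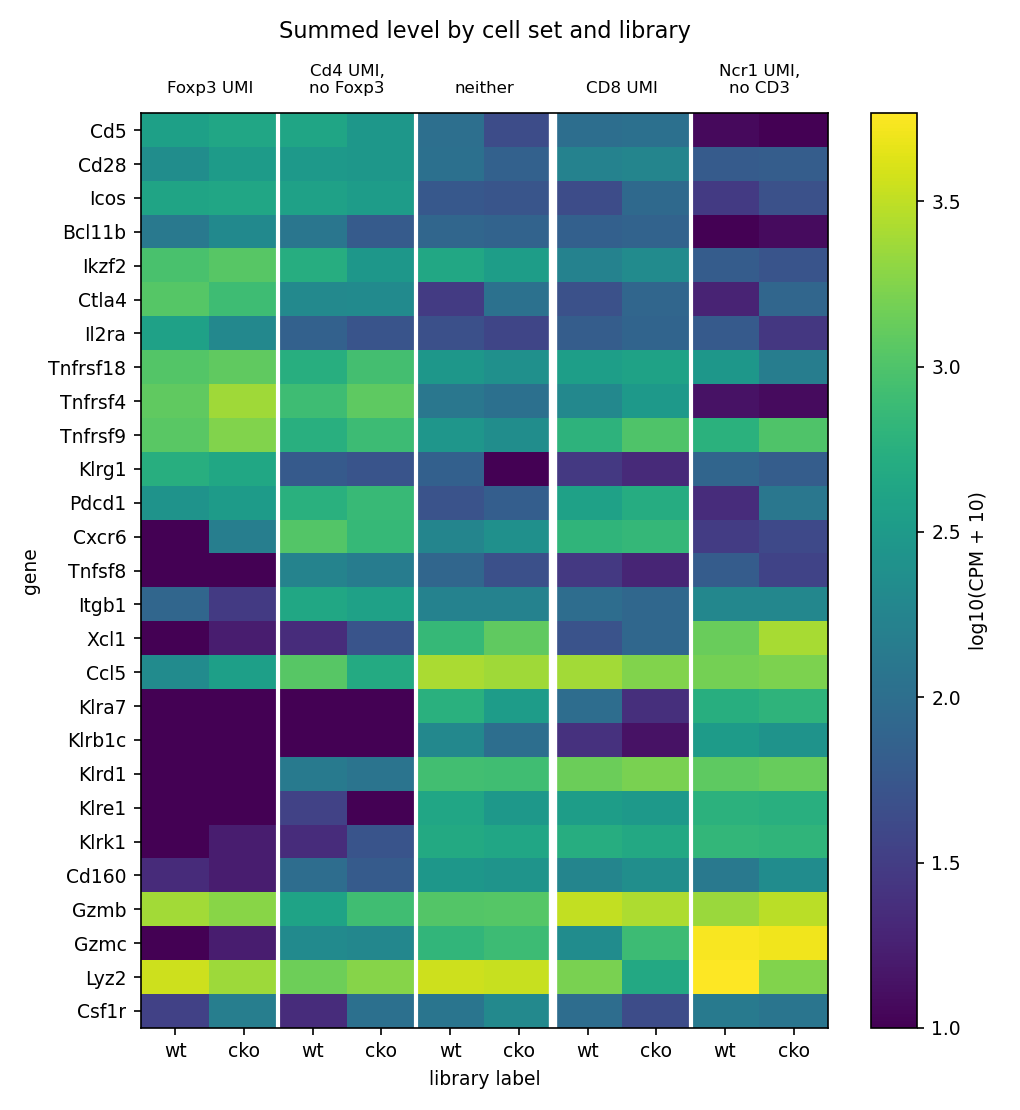
Summed level, as color on a log10(CPM + 10) scale, of 27 genes (rows) in the 3 classes of members, in CD8+ T cells and in the NK gate, each in both libraries (columns). Tnfrsf4, Ctla4 and Ikzf2 are highest in the Foxp3+ columns, while Klra7, Klrb1c and Klre1 are at or near 0 in the columns with Cd4 or Foxp3 and reach 558, 187 and 422 CPM in the library labelled wt among cells with neither.

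Among Cd4+ cells, those with Foxp3 were set against those without (20 against 31 cells). No gene passed the test: edgeR's quasi-likelihood test on UMI sums per library, with the library as a block and n = 2 libraries, called 0% of 1280 genes higher and 0% lower, with 114 genes at an unadjusted p under 0.05 and 3 called by DESeq2. Of 20 regulatory T genes 10 could be tested, 0 passed, and their median log2 difference was 1.36 against -0.01 over all genes tested. The log2 difference was 3.75 for Klrg1 (3.31 and 3.95 within the libraries), 2.38 for Il2ra (2.34 and 2.25) and 2.35 for Ctla4 (1.91 and 2.70), with an adjusted p = 0.149 for each. The values for Tnfrsf4 and Tnfrsf18 were 0.85 (adjusted p = 0.493) and 0.79 (adjusted p = 0.490). With only genes under 10 UMIs left out 54 of 4376 genes were called, and without the cells of high macrophage RNA 49 of 1192.

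Genes on the other side of that comparison were those of the Cd4+ Foxp3- cells. Cxcr6, a chemokine receptor of tissue T cells, stood at 1043 and 705 CPM in them and at 0 and 142 CPM in all Foxp3+ cells (log2 difference among Cd4+ cells -3.03, adjusted p = 0.490). Pdcd1, the inhibitory receptor PD-1, stood at 565 and 726 CPM, and Itgb1, an integrin chain, at 440 and 368 CPM. Tnfsf8, the ligand of CD30, was found in 7 of 16 and 9 of 15 of these cells at 163 and 137 CPM and in no Foxp3+ cell. Cd40lg, the ligand by which helper cells act on CD40, reached 7 and 6 UMIs in 3 and 5 cells.

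When all 128 Foxp3- members served as the reference, a comparison chosen after seeing the data, 87 genes were called higher and 99 lower in the Foxp3+ cells of 3908 tested. Klrg1 was then higher by 3.80 (adjusted p = 7.08e-05), Ctla4 by 3.24 (adjusted p = 4.42e-05), Il2ra by 2.72 (adjusted p = 0.000306), Tnfrsf4 by 2.38 (adjusted p = 1.56e-05) and Ikzf2 by 1.26 (adjusted p = 0.00451) on the log2 scale. Cxcr6 was lower by this test (-2.21, adjusted p = 0.0236). The reference here is mostly the cells with neither transcript, which also differ in Cd4 and in NK receptor RNA.

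**Figure D3:**
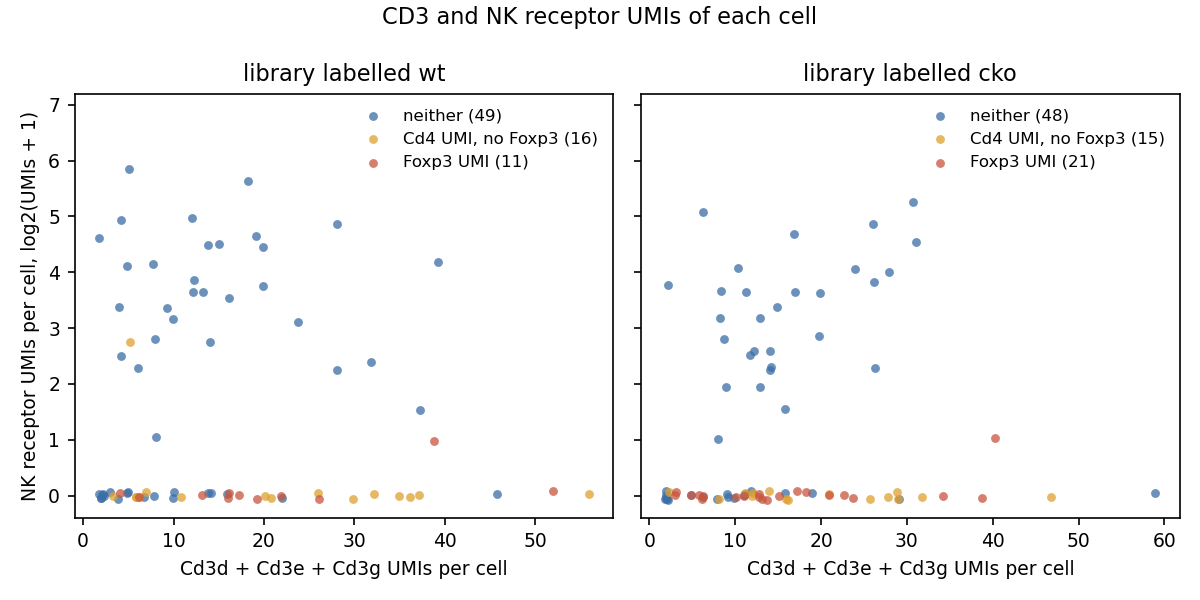
UMIs of NK receptor genes (Ncr1, Klrb1c and Klra genes, y axis, log2(UMIs + 1)) against CD3 UMIs (x axis) in each member, colored by class and slightly jittered, 1 panel per library. Points above 0 are almost all in the class with neither Cd4 nor Foxp3, where 59 of 97 cells hold NK receptor RNA, and they are not limited to cells with few CD3 UMIs.

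In the 97 cells with neither transcript genes of cytotoxic and NK-type lymphocytes were well counted, beside the macrophage RNA given above. Ccl5, a chemokine of cytotoxic cells, stood at 2584 CPM (2403 to 2774) and 2354 CPM (2188 to 2528), in 31 of 49 and 35 of 48 cells. Nkg7, a granule protein, stood at 1678 and 1445 CPM. Klrd1, which encodes the CD94 chain shared by NKG2 receptors, was found in 32 and 34 cells at 848 and 815 CPM. Levels of these genes were close in the 2 libraries.

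Receptors of the Ly49 and related families were found in fewer of these cells. Klra7 was found in 20 and 20 cells at 558 CPM (476 to 651) and 326 CPM (266 to 395), and Ncr1, the activating receptor NKp46, in 22 and 17 cells at 490 and 292 CPM. Klre1 stood at 422 and 285 CPM and Klrb1c, the NK1.1 antigen, at 187 and 90.9 CPM. Each of these 4 was lower in the library labelled cko, whereas Klra1 was counted 40 and 64 times, at 136 and 201 CPM. Klrk1 (NKG2D) and Cd160 were near level, at 463 and 426 CPM and at 283 and 260 CPM. Of the 16 listed NK receptor genes 13 lie within 1608 kb of chromosome 6 (128778485 to 130386874, mm10), and reads of the near-identical Klra genes may be split between them.

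Several high totals in this class came from single cells. Of 353 Ifng UMIs in members of the library labelled wt 343 lay in 1 cell, and of 31 Il2 UMIs 27 lay in 1 cell, while the library labelled cko held 14 and 3. Gzmc was found in 8 and 6 cells at 643 and 784 CPM, with 105 and 215 UMIs in 1 cell each. Xcl1, a chemokine that draws cross-presenting dendritic cells, stood at 712 and 1229 CPM, and 154 of its 392 UMIs in the library labelled cko lay in 1 cell. Sums over such genes describe few cells.

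A few members held RNA of Cd163l1, a scavenger receptor known from gamma delta T cells, and of Blk, a kinase that interleukin-17-producing gamma delta cells use. Cd163l1 was found in 2 members of each library, each also with Blk and Maf RNA and none with NK receptor RNA. Blk alone was found in 2 more members, both in the library labelled wt. Il17a, Il22, Il21, Il13 and Il23r were at 0 UMIs in all members. Genes of the gamma and delta receptor chains were not analysed here.

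The comparison of all Cd4+ members (51) with all Cd4- members (109) asked what goes with Cd4 RNA. The receptor genes Tnfrsf4, Tnfrsf9, Icos and Pdcd1 were higher in Cd4+ cells, and many NK receptor and some cytotoxic genes lower. Of 3503 genes tested 27 were called higher (0.771%) and 26 lower (0.742%) at an adjusted p under 0.05. Tnfrsf4 rose from 183 to 920 CPM in the library labelled wt and from 454 to 1945 CPM in the library labelled cko (log2 difference 2.09, adjusted p = 0.00383). Pdcd1 rose from 43.3 to 418 CPM and from 102 to 571 CPM (2.68, adjusted p = 0.00775). Icos, a costimulatory receptor of activated T cells, rose from 63.2 to 373 CPM and from 92.4 to 434 CPM (2.27, adjusted p = 0.0112). Both libraries moved the same way by similar amounts for these 3 receptors.

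Other calls higher in Cd4+ cells were Penk, the enkephalin precursor (3.37, adjusted p = 0.00452), Ramp3, a partner of calcitonin-type receptors (5.06), Odc1, the first enzyme of polyamine synthesis (2.10), and Tnfrsf9 (1.62, adjusted p = 0.0101). Penk was uneven, with 223 UMIs in Cd4+ cells of the library labelled wt and 32 in those of the library labelled cko. Of 11 tested regulatory T genes 6 were higher (Ctla4, Izumo1r, Klrg1, Tnfrsf18, Tnfrsf4 and Tnfrsf9; median 1.62), and 20 of the 51 Cd4+ cells hold Foxp3, against 12 of the 109 Cd4- cells. Of 12 tested T lineage genes Cd2, Cd5 and Cd6 were higher, and of 7 checkpoint genes Ctla4 and Pdcd1 were higher and Cd160 lower.

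Sdf4, which encodes a calcium-binding protein of the secretory pathway, led the higher calls (2.22, adjusted p = 0.00361). Its level went from 233 to 1171 CPM and from 409 to 2052 CPM. Sdf4 lies on chromosome 4 (155992872 to 156013610, mm10, plus strand) and ends 232 bases before the start of Tnfrsf4 (156013843 to 156016612, plus strand). Of 67 members with a Tnfrsf4 UMI only 2 had no Sdf4 UMI. In cells of the NK gate, where Tnfrsf4 was at 3.51 and 2.02 CPM, Sdf4 stood at 189 and 209 CPM. With neighbours on the same strand and 3′ counting, reads of the 2 genes may not be fully told apart, and how far this shapes the Sdf4 values was not tested.

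The lower calls were led by Xcl1 (-5.60, adjusted p = 0.00361), which went from 695 to 6.44 CPM and from 979 to 29.7 CPM. Klrd1 fell from 829 to 64.4 CPM and from 649 to 59.5 CPM (-3.66), Cd7, a surface protein of NK and T cells, from 433 to 19.3 CPM and from 412 to 5.95 CPM (-5.15), and Ccl5 from 2526 to 682 CPM and from 1950 to 422 CPM (-2.15). Klra7 was counted 268 times in Cd4- cells and 0 times in Cd4+ cells, at least 41.2-fold lower against a floor of 3 counts over the group. Klre1 had 215 and 2 UMIs, a ratio of 49.6 with a counting interval of 13.6 to 412. For all of these genes the libraries moved the same way. With the filter relaxed to genes with at least 10 UMIs no gene of 7648 was called, 637 having an unadjusted p under 0.05, and DESeq2 called 29 genes.

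Of 11 tested NK receptor genes 8 were lower (Fcer1g, Klra1, Klra7, Klrb1c, Klrd1, Klre1, Klrk1 and Tyrobp; median -4.03 against -0.02 over all genes tested), and of 9 cytotoxic genes 4 were lower (Ccl5, Ctsw, Gzmc and Nkg7). Gzmc was lower by this test (-2.72, adjusted p = 0.00383) but stood at 0.53 once cells with Ncr1 were left out. Fcer1g and Tyrobp encode signalling adaptors that myeloid cells also use. Of 13 tested macrophage genes Csf1r was lower and the median was -1.71, and Cst3, a protease inhibitor abundant in myeloid cells, was lower too (-1.77, adjusted p = 0.00452). The part of macrophage RNA in these values was not tested further: the summed macrophage level is given above, and with the 29 members of high macrophage RNA left out, 81 genes were called, 42 of them among the 53 here. None of 15 cell cycle genes was called.

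**Figure D4:**
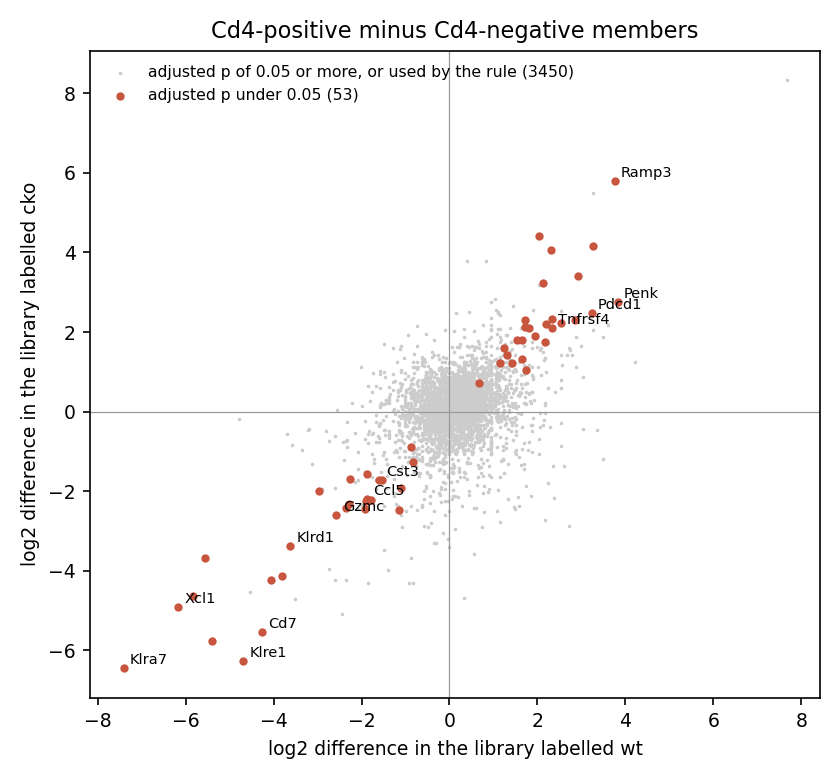
Log2 difference between Cd4+ and Cd4- members in the library labelled cko (y axis) against that in the library labelled wt (x axis), 1 point per gene tested; the 53 called genes are red. Each called gene has the same sign in both libraries, with Tnfrsf4 at 2.32 and 2.10 and Klrd1 at -3.62 and -3.38.

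Compared with the 195 CD8+ T cells (81 and 114) of the same limits, members had less cytotoxic RNA and more of several regulatory and NK genes. Of 6333 genes tested 281 were higher (4.44%) and 152 lower (2.4%) in members. Gzmf, a granzyme, had 2587 UMIs in CD8+ cells and 5 in members (log2 difference -8.20, adjusted p = 1.04e-08). Gzmb fell from 3216 to 1178 CPM and from 2652 to 1261 CPM (-1.31), perforin (Prf1) from 167 to 19.7 CPM and from 180 to 33.4 CPM (-2.73), and Lag3, an inhibitory receptor, from 501 to 107 CPM and from 759 to 96.7 CPM (-2.66). Gzmd (-3.59), Gzme (-3.74), Klrd1 (-1.58) and Nrgn, a calmodulin-binding protein (-2.54), were the other named losses. Of 14 cytotoxic genes tested 10 were lower, with a median of -1.37 against 0.01 over all genes. The 6 granzyme genes from Gzmb to Gzmg lie within 145 kb of chromosome 14 (56117626 to 56262260), and the near-identical ones may share reads.

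Higher in members than in CD8+ cells were Xcl1 (3.28, adjusted p = 3.58e-07), from 41.0 to 461 CPM and from 74.3 to 698 CPM, and Itgb7, an integrin chain of gut-homing lymphocytes (2.19), from 83.4 to 419 CPM and from 91.4 to 410 CPM. Ctla4 went from 38.3 to 243 CPM and from 71.4 to 302 CPM (2.27, adjusted p = 4.7e-05), and Klrg1 from 19.1 to 145 CPM and from 11.4 to 125 CPM (3.12). Ifi27l2a, an interferon-induced gene (1.66), Emb, an immunoglobulin-family membrane protein (1.69), and Ramp3 (2.74) also rose. Chil3, a secreted protein of myeloid cells, was higher (2.56) but turned to -0.44 once the cells with macrophage RNA were left out.

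By list, 6 of 12 regulatory T genes were higher (Ctla4, Ebi3, Ikzf2, Izumo1r, Klrg1 and Tnfrsf4). So were 6 of 13 interferon response genes and 4 of 10 naive and memory genes (among them Klf2, Tcf7 and Txk). Of 18 genes listed for interleukin-17-producing and gamma delta T cells only 3 could be tested, and all were higher (Blk, Cd163l1 and Maf). The first 2 came from the few cells above. Maf was spread wider: Cd4+ members with Foxp3 held 47 Maf UMIs and those without 27. Of 14 NK receptor genes 7 were higher (Fcer1g, Klra1, Klra4, Klra7, Klra9, Klrb1c and Tyrobp) and 4 lower (Klrc1, Klrc2, Klrd1 and Klrk1). Fcer1g and Tyrobp are the adaptors that myeloid cells also use. Of 11 checkpoint genes Havcr2, Lag3, Pdcd1 and Tox were lower and Ctla4 higher. Macrophage genes moved as well: Ctss, Fcgr3, H2-Ab1 and Lyz2 of 13 tested were higher in members, whose summed macrophage level of 12661 and 14377 CPM compares with 10021 and 3067 CPM in CD8+ cells. Lyz2 went from 1.76 on the log2 scale to 0.11 without the cells of high macrophage RNA.

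The 109 Cd4- members were also compared with the NK gate (69 and 55 cells with Ncr1 RNA, without CD3 and CD8 UMIs). The same Cd4- cells serve in the Cd4 comparison above. Of the gate's cells 34 of 124 (21 and 13) held over 5 UMIs of the 5 macrophage genes, and the 13 macrophage genes summed to 14443 and 9689 CPM there; the part of this RNA was not tested beyond leaving such cells out on both sides, with which 192 genes were called, 70 of them among the 82 here. Cd4- members carried T lineage genes and far less granzyme RNA: of 5359 genes tested 40 were higher (0.746%) and 42 lower (0.784%). Cd5, an inhibitory co-receptor of T cells, had 1 UMI in the NK gate and 70 in Cd4- members (ratio 106, counting interval 18.5 to 4255), and Bcl11b, a transcription factor of T cell commitment, 1 and 65 (98.6, 17.1 to 3956). Ikzf2 rose from 54.4 to 459 CPM and from 42.5 to 452 CPM (3.21), and Cxcr6 from 21.0 to 170 CPM and from 30.4 to 200 CPM (2.82). Of 12 T lineage genes tested Bcl11b, Cd2, Cd5, Cd6 and Lat were higher, none lower. Of 10 regulatory T genes Ikzf2 and Tnfrsf4 were higher and Tnfrsf9 lower, and of 10 activation genes Cd69 and Tnfrsf4 were higher and Tnfrsf9 and Xcl1 lower.

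Tnfrsf4 had 3 UMIs in the NK gate and 237 in Cd4- members (ratio 120, counting interval 40.5 to 586), of which 173 came from the 12 Cd4- cells that held Foxp3. Ifit1, a gene of the interferon response, was higher (3.22), and Penk, at 0 UMIs in the NK gate, was at least 20.7-fold higher.

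Several granzymes were lower in Cd4- members than in the NK gate. Gzmg had 1835 UMIs in the NK gate and 0 in Cd4- members, at least 403-fold lower, and Gzmf 1285 and 0, at least 282-fold lower. Gzmc fell from 5540 to 629 CPM and from 5109 to 627 CPM (-3.10), and Gzma from 4534 to 685 CPM and from 2325 to 212 CPM (-3.09). Gzmd (-8.29), Gzme (-6.93), Serpinb9b, an inhibitor of proteases (-4.15), and Spp1, the secreted protein osteopontin (-3.53), were also lower. In all 10 of 14 cytotoxic genes were lower (median -2.26 against -0.0015 over all genes). Of 15 NK receptor genes only Klra4 and Klrb1c were called, both lower, and the median of the list was -0.76. The gate itself asks for Ncr1.

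Between the libraries few well-counted genes of the members were far apart. Of 2927 genes with at least 50 UMIs 43 were at least 2-fold higher in the library labelled cko (1.47%) and 19 at least 2-fold lower (0.649%), 2.12% in all, with no test. Bnip3, a mitochondrial protein of the hypoxia response, stood at 28.5 and 102 CPM (log2 ratio 1.84, 0.95 to 2.83). Hmox1, heme oxygenase, (1.52), Ero1l, an oxidase of protein folding, (1.49), Zbtb38 (1.38), Lgmn, a lysosomal protease, (1.38, 0.96 to 1.81), Pirb, a myeloid inhibitory receptor, (1.34) and Dcaf13 (1.33) were the other named genes higher in the library labelled cko. Without members of high macrophage RNA the log2 ratio of Lgmn was 0.85 and the log2 ratio of Pirb 0.49, whereas the log2 ratio of Hmox1 was 2.36 and the log2 ratio of Bnip3 1.11.

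Tgfb1, the cytokine TGF-beta 1, was lower in the library labelled cko, at 222 and 79.1 CPM in members (log2 ratio -1.49, -2.03 to -0.96). The same order held in each class: 376 and 77.6 CPM in Foxp3+ cells, 251 and 42.1 in Cd4+ Foxp3- cells, and 170 and 90.9 in cells with neither. It also held outside the members, with Tgfb1 at 171 and 60.0 CPM in CD8+ cells, 258 and 87.1 in the NK gate and 478 and 175 in C1q+ cells. The order was thus shared with cells outside the members. Over all members Mxd1, a repressor of the MYC network, (-1.49), Samd3 (-1.47) and Klrb1c (-1.24) were lower too, followed by Supt16, Ttc1, Fam63b and Gm4955, at -1.07, -1.07, -1.04 and -1.02. Mxd1 went the other way in Foxp3+ cells, at 24.2 and 90.6 CPM (2 and 14 UMIs). It stood at 201 and 31.6 CPM in Cd4+ Foxp3- cells and at 123 and 21.9 CPM in cells with neither.

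Tnfrsf4 was higher in the library labelled cko over all members, at 434 and 895 CPM (log2 ratio 1.04, 0.80 to 1.29). The ratio was 0.97 (0.64 to 1.30) within Foxp3+ cells and 0.56 (0.11 to 1.03) within Cd4+ Foxp3- cells, and in cells with neither transcript its interval included 0 (-0.30, -1.06 to 0.45). In CD8+ cells the ratio was 0.70 (0.40 to 1.00). Ctla4 went the other way in Foxp3+ cells (-0.47, -0.87 to -0.06). A sum over all members also moves with the number of Foxp3+ cells, which was 11 and 21.

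Gene lists were compared between libraries by their medians. Against a median log2 ratio of 0.04 over 7648 genes with at least 10 UMIs, of which 4057 lay above 0 and 3591 below, 6.83% being at least 2-fold higher and 4.45% at least 2-fold lower, the median was 0.31 for 15 regulatory T genes, 0.60 for 13 activation genes, 0.08 for 12 cytotoxic genes and 0.05 for 15 cell cycle genes. Interferon response genes had a median of -0.24, 12 of 15 lower, and NK receptor genes one of -0.47, 11 of 15 lower and 4 at least 2-fold lower. The last median was 0.14 without members that hold Ncr1. Granulocyte genes had the lowest median among the lists with at least 2 genes, -1.46 over 4 genes with 3 at least 2-fold lower, with S100a8 at 373 and 127 UMIs and S100a9 at 319 and 77. Macrophage genes had a median of 0.24 with 12 of 13 higher, and -1.28 without members of high macrophage RNA. Apoe, a lipid carrier abundant in macrophages and a gene of that list, stood at 98.7 and 943 CPM, with 248 of its 536 UMIs in the library labelled cko in 1 cell and 24 of 45 in the library labelled wt in 1 cell. With the highest cell of each library dropped its log2 ratio was still 3.46 (2.82 to 4.17). Genes with over 25% of their UMIs in 1 cell were not among those named by size above, and Apoe was chosen after its values were seen. In C1q+ cells Apoe stood at 2309 and 4656 CPM, and its part as macrophage RNA in the members was not tested.

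**Figure D5:**
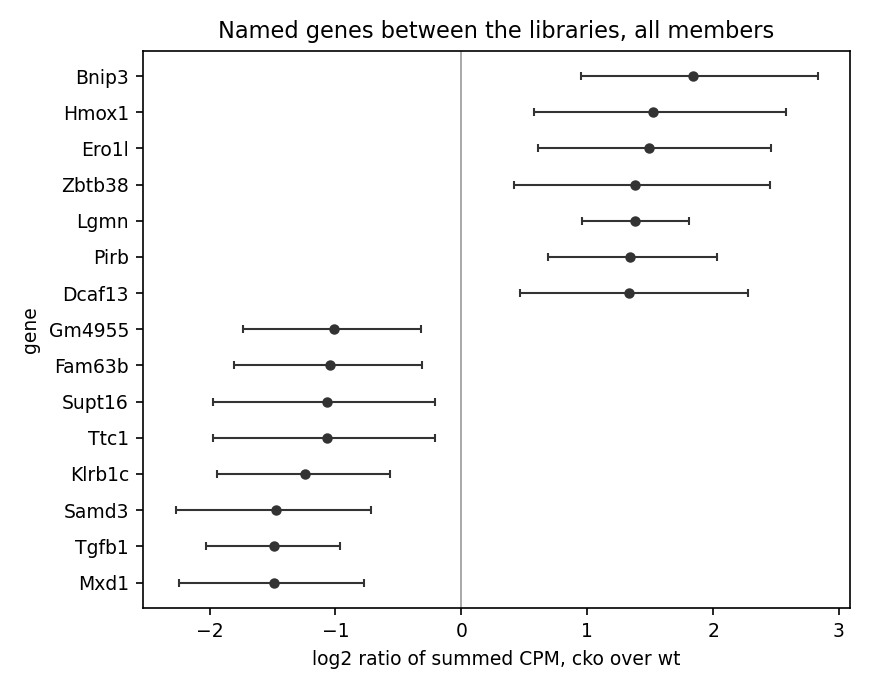
Log2 ratio of summed CPM in all members (x axis), library labelled cko over library labelled wt, for the genes named in each direction; points are ratios and whiskers exact 95% conditional intervals (counting error only). Bnip3 at 1.84 and Mxd1 at -1.49 are the outermost points, and no whisker reaches 0 among these genes, which were chosen for their size.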

How the data were processed

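The data are gene by cell matrices of 10x Genomics 3′ v2 libraries from 2 samples. The deposited values are raw UMI counts per gene and cell, which per the labels the authors made with Cell Ranger on mm10; Seurat is also named in the submitters' processing notes, and versions are not given in the sources used here. UMI counts of members, 3214 to 15367 per cell in the library labelled wt and 3207 to 19410 in the library labelled cko, set the precision. The rule for members and the gene lists were chosen with earlier results of these data known. Cells were not treated as replicates.

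Between libraries, UMIs were summed over cells and scaled to CPM, with exact Clopper-Pearson intervals for shares (a floor of 3 counts where a share or level was 0), exact Poisson intervals for levels and exact conditional binomial intervals for ratios (95%, scipy 1.17.1), and no test. Comparisons of cell sets used edgeR 4.0.16 (R 4.3.3; TMM, filterByExpr, quasi-likelihood test, Benjamini-Hochberg adjustment over all genes tested, threshold 0.05) on sums per library and cell set with the library as a block. With 2 libraries and 1 residual degree of freedom, p-values measure only how far a difference between cell sets varies between the 2 pools. The pools also differ in genotype, so this variation may be technical or go with genotype, which cannot be told apart. Genes of the selection rules were left out of the calls. DESeq2 1.42.0 was an alternative. The scripts were tested on simulated data. The text names the 8 genes with the lowest adjusted p in each direction per comparison, the 8 highest and lowest ratios between libraries among genes with at least 50 UMIs and under 25% of UMIs in 1 cell, and genes of the lists; the genes named in the Foxp3 comparison and genes given for UMIs that lie in 1 cell, such as Apoe, were chosen after their values were seen; a few genes these rules pick are not reported here. Doublets were scored with Scrublet (scanpy 1.11.5) and left in. Gene positions are from the GRCm38 annotation, and genes of the gamma and delta receptor chains were not analysed here.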

Additional observations from a re-analysis of the deposited data

Results flagged for a closer look

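A few genes had log2 ratios between the libraries (labelled cko over labelled wt) of opposite sign, each at least 2-fold, in different classes of members; none of these differences was tested. Birc5, a regulator of cell division, stood at 1.47 in cells with neither Cd4 nor Foxp3 and at -1.28 in Foxp3+ cells. Ccnb2, a mitotic cyclin, stood at 2.65 and -1.75 in the same classes. The Foxp3+ cells number only 11 and 21. Over all members of the library labelled wt, 20 of 56 Birc5 UMIs and 10 of 28 Ccnb2 UMIs lay in 1 cell. Mcm5, a subunit of the replication helicase, stood at -1.12 in cells with neither transcript and at 1.26 in Foxp3+ cells. Lgmn stood at 2.82 in Foxp3+ cells and at -1.01 in Cd4+ Foxp3- cells, classes in which the summed macrophage level was 6361 and 12835 CPM and 4284 and 12892 CPM; the part of macrophage RNA was not tested.

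Cells with CD3 and no CD8 UMI but over 5 C1q UMIs, 14 and 18 in the 2 libraries, were left out by the rule. In the library labelled cko 11.1% of them (2 of 18, with 8 UMIs) held Foxp3, against 0 of 969 C1q+ cells without CD3, which allows up to 0.310% (3 counts). In the library labelled wt 0 of 14 held Foxp3, against 1 of 787 C1q+ cells. The cells left out had medians of 15152 and 15207 UMIs, above those of the members.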

How the results depend on the processing

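Of 23 alternative values of shares 2 moved: with members limited to cells without a C1q UMI, the ratio of shares of all cells was 0.581 and the ratio for the share of members with Cd4 was 2.07. Genes at least 2-fold apart numbered 862 with a minimum of 10 UMIs. Of 165 alternative list medians 11 moved. Without a C1q UMI the median was 1.45 for checkpoint, -1.16 for NK receptor, -1.09 for cell cycle, -1.04 for interferon response and 1.58 for macrophage genes. Macrophage genes had 0.65 with at least 3 CD3 UMIs, 0.60 in cells of at least 5000 UMIs, 0.73 when each gene's highest cell was dropped and -1.28 without members of macrophage RNA; NK receptor genes had 0.14 without Ncr1 members and cytotoxic genes -0.40 with a minimum of 50 UMIs. None of 64 ratios of named genes reversed.

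Counts of called genes changed more. For the Foxp3 comparison (0 called) DESeq2 gave 3, no filter beyond 10 UMIs 54, thinning 5, leaving out macrophage RNA 49 and all members as reference 186. For the Cd4 comparison (53) DESeq2 gave 29, no filter 0 (637 at an unadjusted p under 0.05), thinning 27, leaving out macrophage RNA 81, leaving out Ncr1 cells 234 (46 of the 53 among them) and Cd4 or Foxp3 against neither 247. For the CD8 comparison (433) DESeq2 gave 65, thinning 226 and leaving out macrophage RNA 280. For the NK comparison (82) DESeq2 size factors gave 165, DESeq2 28 and leaving out macrophage RNA 192. Without the library block the Foxp3, Cd4, CD8 and NK comparisons gave 1, 128, 337 and 70. The alternatives without macrophage RNA, with all members and with Cd4 or Foxp3 against neither were chosen after seeing the data, and the causes were not tested.

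The log2 difference of Icos in the Foxp3 comparison was -0.027 without the library labelled cko and 0.81 without the library labelled wt, each a value with no test. Gzmc turned to 0.53 in the Cd4 comparison without Ncr1 cells and Chil3 to -0.44 in the CD8 comparison without macrophage RNA. No paired analysis was possible between the libraries because each group is 1 library. Shallow cells limit single-UMI calls of Cd4 and Foxp3.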
